A study of Mus musculus with 6 samples.

Results

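Mouse fibroblasts induced toward parvalbumin neurons and then sorted for green fluorescence were compared with a sample labelled as endogenous parvalbumin (PV) neurons. The 2 samples are 2 of the 6 of the series, and were taken by their titles in the deposited table of array values. Each was measured on 1 array, so the comparison has no replicate and no p-value, and every difference below describes these 2 arrays. It covers 22180 genes and sets the purified induced cells beside the sample that carries the label of their target cell type. The markers given below do not show parvalbumin neurons on that array, so the comparison does not measure nearness to them.

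Both samples came from PV-GFP transgenic mice of strain C57BL/6, and both carry a label of embryos aged 13.5 days. In these mice a transgene labels parvalbumin cells with green fluorescent protein (GFP), and its promoter is not given in the sources used here. The sorted sample held the GFP-positive cells collected 14 days after infection of embryonic fibroblasts with adenovirus, whose cargo the labels do not name. The labels of the endogenous sample name neither a brain region nor a dissection or sort, and they repeat the fibroblast culture and infection text of the other 5 samples. The other 4 arrays, embryonic fibroblasts (MEF) and unsorted induced cells (iPV) at days 3, 7 and 14, serve here only to show on which side of the pair a difference lies.

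Parvalbumin neurons are inhibitory interneurons that fire at high rates. They make the transmitter GABA with the glutamate decarboxylases, load it into vesicles with the vesicular GABA transporter, and repolarise quickly through Kv3 potassium channels. Many are wrapped in perineuronal nets, a specialised extracellular matrix. Fibroblasts, the starting cells of the induction, instead secrete collagens, proteoglycans and matrix proteases, and respond to infection and injury with chemokines, acute-phase proteins and interferon-induced genes.

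Members of the pan-neuronal, other interneuron and secretory granule lists were among the genes higher in sorted cells. Members of the macrophage, chemokine, acute-phase, interferon and matrix-protease lists were among those higher on the array labelled endogenous PV. A difference of 2-fold or more was found upward in sorted cells for 302 genes, 1.36% of those compared, and downward for 253, 1.14%. Values are log2 intensities, and those under 5.01, the median over all probe sets other than controls, were set to 5.01 before subtraction. Where 1 of the 2 values was raised in this way, the fold can only be larger than the number printed, and "at least" marks it. The lower side reached further: 65 genes were 4-fold or more lower against 17 higher, and 14 were 8-fold or more lower against 0 higher.

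**Figure D1:**
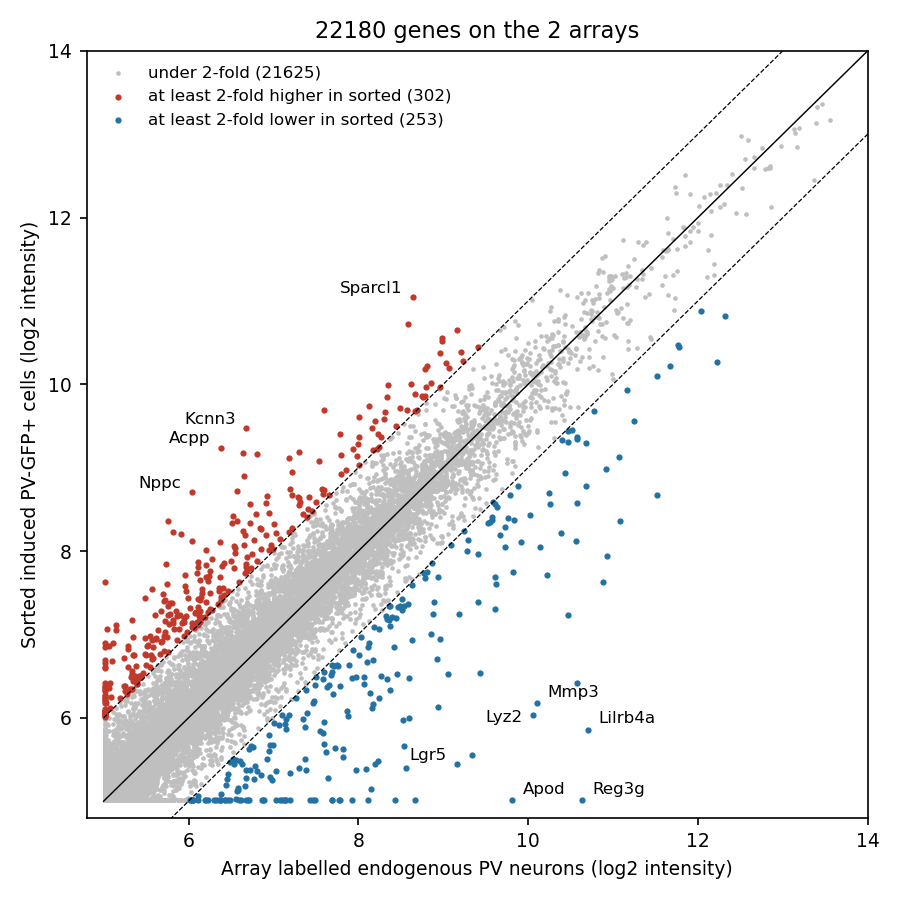
Each point is a gene, with its log2 intensity on the array labelled endogenous PV on the horizontal axis and in sorted cells on the vertical axis, values under the floor being set to it. The dashed lines mark 2-fold, the 302 red genes lie above them and the 253 blue genes below, and the blue genes reach further from the diagonal than the red ones.

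The position of the 2 arrays among all 6 is given as a description. The genes were called on the difference of these same 2 arrays, which by itself pushes the shares below upward. The shares and medians are thus no test of which array stands away. Among the 302 genes higher in sorted cells, the sorted array had the highest value of all 6 arrays for 262 (86.8%), whereas the endogenous array had the lowest for 68 (22.5%). Among the 253 lower genes, the endogenous array had the highest of the 6 values for 183 (72.3%) and the sorted array the lowest for 107 (42.3%). Measured from the median of the other 4 arrays, the higher genes had a median of 1.06 in sorted cells and -0.24 on the endogenous array. The lower genes had -0.45 in sorted cells and 1.08 on the endogenous array. Over all 13224 genes at or above the floor on either array the sorted array was the highest of 6 for 26.7% and the endogenous array for 14.7%, so the sorted array was the highest more often than the endogenous one without any threshold too. Over the same genes the sorted array was the lowest for 11.1% and the endogenous array for 12.1%.

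**Figure D2:**
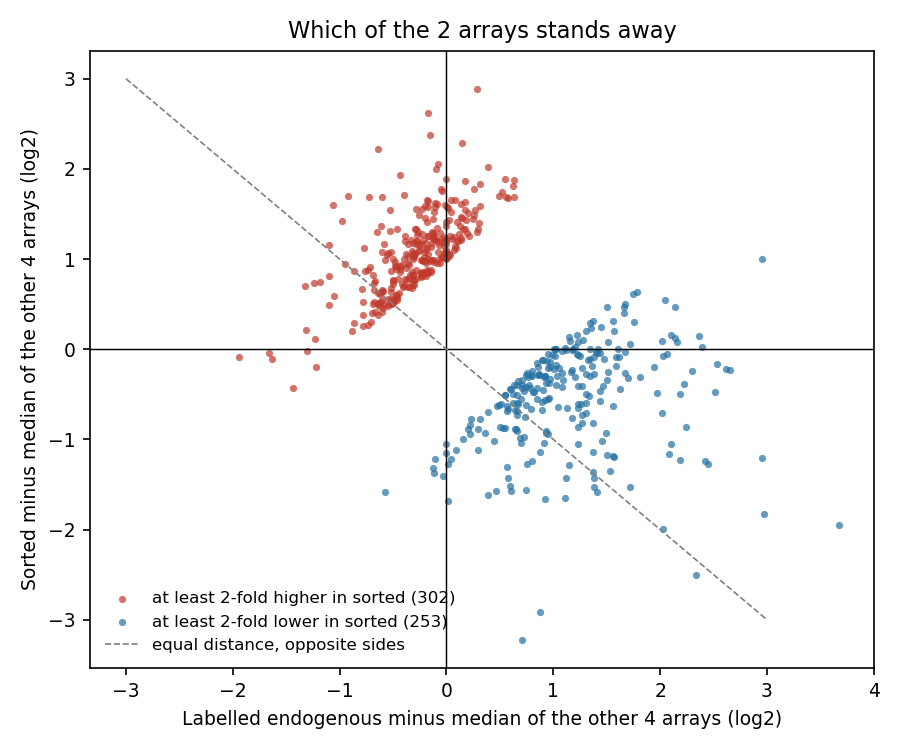
Each point is a gene at least 2-fold different between the 2 arrays. The horizontal axis gives the endogenous array, and the vertical axis the sorted array, each as its log2 difference from the median of the other 4 arrays. Red genes cluster above 0 on the vertical axis near 0 on the horizontal one, with medians of 1.06 and -0.24, and blue genes lie to the right, with medians of -0.45 and 1.08. The genes were chosen by the difference of these same 2 arrays, so their positions are not a test.

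The 6 arrays had medians between 4.96 and 5.06 over probe sets other than controls, and between 56.4% and 58.0% of genes lay at or above the floor on each. The upper quartile was 6.68 on the sorted array, the highest of the 6, and 6.60 on the endogenous array. Over all genes the sorted array correlated with the endogenous one at r = 0.968, a description across genes, against 0.974 with unsorted day 14 cells, and the endogenous array correlated at 0.978 with day 7 cells and 0.959 with MEF. Where a gene had several probe sets above the floor on both arrays, the differences given by its 2 brightest were compared. The standard deviation of their disagreement, divided by the square root of 2, was 0.32 over 343 genes. It covers scatter between probe sets, and neither error shared by a whole array nor variation between cultures or animals.

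The labels of both samples were first set against the genes that define a parvalbumin neuron, and most of these had values near or under the floor on both arrays. Of 23 measured genes of the parvalbumin interneuron list, 14 lay at or above the floor in sorted cells and 12 on the endogenous array, against 11 in MEF. Pvalb, which encodes parvalbumin itself, had 6.29 in sorted cells and 5.48 on the endogenous array, a difference of 0.82 that stayed under 2-fold. The Kv3 channel genes Kcnc1 and Kcnc2 had 4.92 and 3.35 in sorted cells and 4.50 and 3.07 on the endogenous array, under the floor in each case. Sox6, a transcription factor of this lineage, and Erbb4, the neuregulin receptor of these cells, were likewise under the floor on both. Lhx6, the lineage regulator above them, had 5.48 in sorted cells and 5.78 on the endogenous array.

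The transmitter genes were low on both arrays as well. Gad1, a glutamate decarboxylase, had 4.68 in sorted cells and 5.13 on the endogenous array, and Gad2, the other one, 4.49 and 4.09. Slc32a1, the vesicular GABA transporter, had 4.46 and 5.05. All 6 of these values lie under the floor or just above it. Of 8 measured genes of the GABAergic list, 0 differed 2-fold, where 1.36% of all genes were higher and 1.14% lower. Only 5 of the 8 lay at or above the floor on either array, so this count says little about the list. The largest difference was that of Dlx2, an interneuron homeobox gene, with 5.78 in sorted cells and 4.84, under the floor, on the endogenous array. The array labelled endogenous PV thus had the defining markers of that cell type under the floor or close to it, while Col1a1, a type I collagen chain, had 12.34 there and 12.39 in sorted cells.

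A few genes of the parvalbumin interneuron list did differ. Of the 23, 3 were at least 2-fold higher in sorted cells (13.0%, against 1.36% of all genes) and 0 lower. Nefh, the heavy neurofilament subunit, had 7.22 in sorted cells and 5.86 on the endogenous array, with 5.86 to 6.48 on the other 4. Hapln4, a link protein of perineuronal nets, had 6.61 against 5.29, and Ppargc1a, a coactivator of mitochondrial genes, 6.09 against 5.02. All 3 had their highest value of the 6 arrays in sorted cells. Under quantile normalization Ppargc1a fell short of 2-fold and 2 of the 23 remained. With the floor raised to percentile 75 of the probe sets, 6.58, 0 of the 23 passed 2-fold.

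Genes shared by most neurons were examined next. Of 24 measured pan-neuronal genes, 9 were at least 2-fold higher in sorted cells, 37.5% against 1.36% of all genes, and 1 was lower. The median log2 difference was 0.62 over the 22 at or above the floor on either array, against 0.05 over all such genes. For 16 of the 24 the sorted array had the highest value of the 6, and for 0 of them the endogenous array did. With the floor at 6.58, 2 of the 24 passed 2-fold upward and 0 downward.

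Intermediate filament and tubulin genes made up much of that count. Ina, alpha-internexin, had 6.90 in sorted cells, 5.11 on the endogenous array and 4.39 to 5.52 on the other 4, a 3.45-fold difference. Tubb3, the neuron-specific beta-tubulin, had 7.16 in sorted cells and 5.73 on the endogenous array, the latter inside the range of 5.69 to 6.17 on the other 4. Tubb4a, another beta-tubulin of neurons, had 8.02 against 6.85. The light and medium neurofilament genes Nefl and Nefm had 6.41 and 6.37 in sorted cells and were under the floor on the endogenous array, at least 2.64-fold and at least 2.57-fold apart. In each of these 5 genes the sorted array stood above all others.

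Genes of the release machinery and of excitable membranes differed less uniformly. Snap25, a SNARE protein of vesicle fusion, had 8.05 in sorted cells and 6.53 on the endogenous array, 2.87-fold, with 4.44 in MEF and 6.00 to 6.90 in the unsorted induced cells. Syt1, the calcium sensor of release, had 6.38 against 5.24, and Rab3a, a vesicle GTPase, 7.62 against 6.59. These were the 3 of 19 genes of the synaptic vesicle and active zone list past 2-fold upward, with 0 downward. That is 15.8%, against 1.36% of all genes. Rab3a fell short of 2-fold under quantile normalization and housekeeping centring. Among 18 voltage-gated channel genes and 10 GABA and glutamate receptor genes, 0 differed 2-fold in either direction. Of these, 10 and 6 lay at or above the floor on either array. Over all genes 1.36% were higher and 1.14% lower. The pan-neuronal exception was Gap43, a growth cone protein, with 5.99 in sorted cells and 7.15 on the endogenous array, 2.23-fold lower.

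Some dense-core granule genes were higher in sorted cells. Of 11 measured granin and granule enzyme genes, 3 passed 2-fold upward, 27.3% against 1.36% of all genes, and 0 downward, and the median was 0.61 over the 9 above the floor. Cpe, carboxypeptidase E of prohormone processing, had 9.61 in sorted cells and 8.01 on the endogenous array, which was the lowest of the 6 arrays. MEF had 9.79 for Cpe, above the sorted array. Chga, chromogranin A, had 6.98 against 5.54, and Chgb, chromogranin B, 6.35 against a value under the floor. With the higher floor only Cpe remained.

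Some markers of other interneuron classes were higher too. Of 14 genes of these classes, 5 passed 2-fold upward, 35.7% against 1.36% of all genes, and 0 downward, with a median of 0.66 over 12. Of the 12, 8 had higher and 4 lower values in sorted cells. For 3 of the 14 the endogenous array was the highest of the 6. Htr3a, a serotonin-gated channel subunit, had 6.86 in sorted cells and 5.06 on the endogenous array. Prox1, a homeobox regulator, had 7.84 against 6.20. Calb2, which encodes calretinin, had 9.88 against 8.67, while MEF had 2.44 and the unsorted induced cells 8.09 to 9.45. The neuropeptide gene Cck had 10.38 against 9.21, where MEF had 7.11. Nos1, the neuronal nitric oxide synthase, had 6.07 against a value under the floor. For Calb2 and Cck the array labelled endogenous PV therefore lay inside the range of the unsorted induced cells and well above MEF. Of 11 measured glutamatergic genes 3 lay at or above the floor on either array. Past 2-fold upward were 2 of the 11, 18.2% against 1.36% of all genes. Slc17a7, a vesicular glutamate transporter, had 6.06 in sorted cells against a value under the floor, and Camk2a, a synaptic kinase, 6.98 against 5.95. Under quantile normalization Slc17a7 and Camk2a both fell short of 2-fold.

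**Figure D3:**
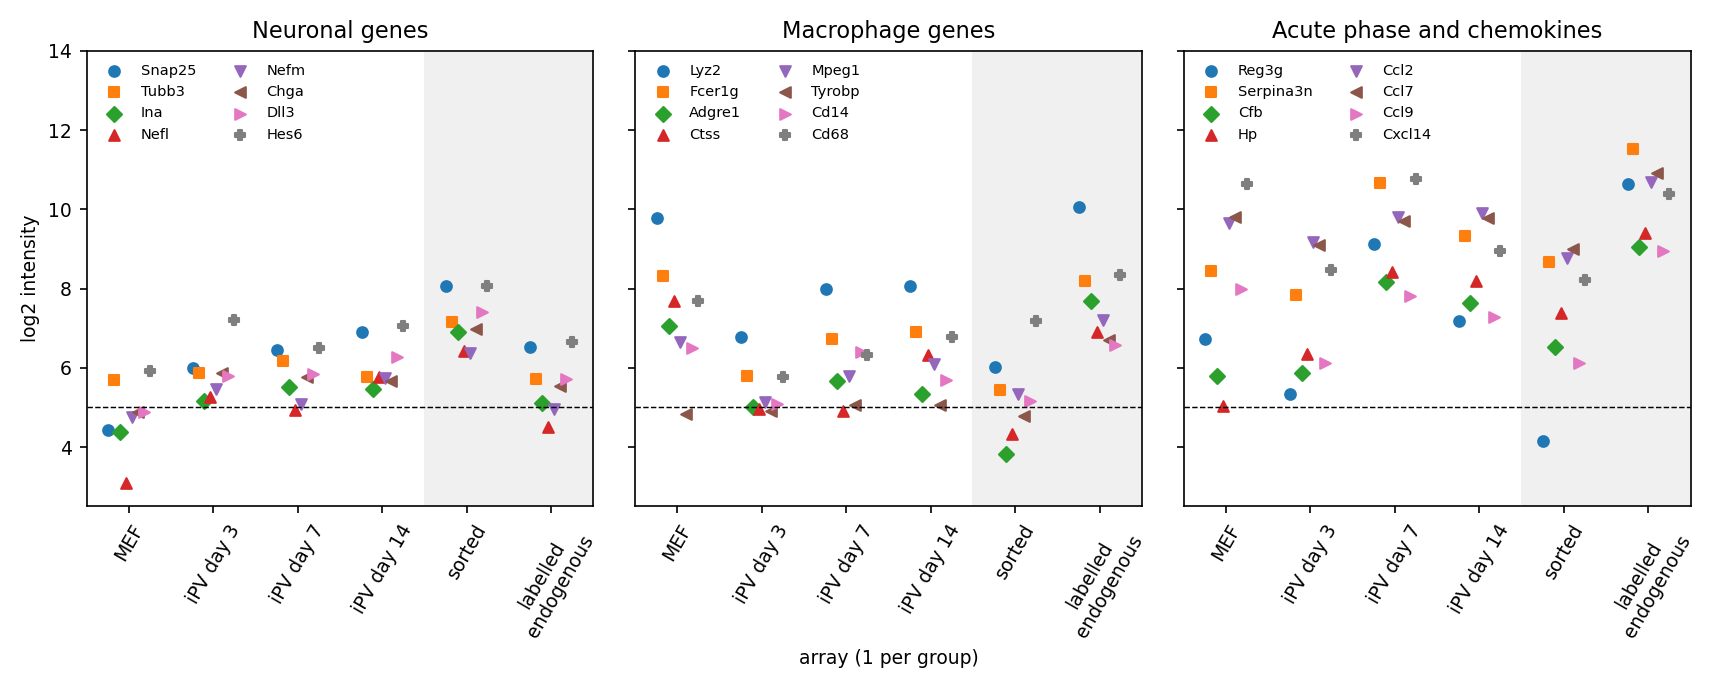
Each panel plots the log2 intensity of 8 genes on the 6 arrays, 1 array per group, with the pair compared on grey and the floor dashed. In the neuronal panel the sorted array holds the highest value of every gene, Snap25 at 8.05 and Tubb3 at 7.16 among them. The genes of that panel were picked among those at least 2-fold higher in sorted cells. Over the 24 measured pan-neuronal genes the sorted array was the highest for 16. The genes of the other panels were picked too and do not stand for their whole lists. At least 2-fold lower in sorted cells were 10 of 21 macrophage, 6 of 13 acute-phase and 9 of 23 chemokine genes. In the macrophage panel Lyz2 has 10.05 on the endogenous array and 6.03 in sorted cells, and in the third panel Reg3g has 10.63 against 4.15.

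In the proneural programme, basic helix-loop-helix (bHLH) factors drive neuronal commitment, and Notch ligands are among the genes they induce. Of 23 measured members, 4 passed 2-fold upward in sorted cells, 17.4% against 1.36% of all genes, and 0 downward. The median was 0.38 over the 14 above the floor, of which 5 had lower values in sorted cells. Dll3, a Notch ligand family member induced by proneural factors, had 7.40 in sorted cells, 5.71 on the endogenous array and 4.88 to 6.26 on the other 4. Hes6, a bHLH protein that promotes differentiation, had 8.07 against 6.65, with 5.92 to 7.21 elsewhere. Id2 and Id3, which bind bHLH partners and block their action on DNA, had 9.72 and 9.68 in sorted cells against 8.49 and 8.66, and Id3 fell short of 2-fold under housekeeping centring. The sorted array was the highest of the 6 for Dll3, Hes6 and Id3, and for Id2 the day 3 array, at 9.76, lay just above it.

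Because bHLH proneural factors bind the E-box letters CAGCTG, promoters of such genes were read from a RefSeq table of build GRCm38.p6, which gives 250 bases before and 50 after each annotated start. The stretches below, each of 100 bases before the start, 5′ to 3′ on the strand of the gene, are shown because their genes were higher in sorted cells and hold the motif, in capitals. They lie at chr7:28301786-28301885 on the minus strand for Dll3, chr1:91413318-91413417 on the minus strand for Hes6 and chr19:47014501-47014600 on the plus strand for Ina.
Dll3: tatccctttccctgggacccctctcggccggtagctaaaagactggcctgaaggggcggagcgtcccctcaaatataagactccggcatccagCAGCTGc
Hes6: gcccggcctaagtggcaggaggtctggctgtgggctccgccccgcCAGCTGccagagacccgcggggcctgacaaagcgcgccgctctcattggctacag
Ina: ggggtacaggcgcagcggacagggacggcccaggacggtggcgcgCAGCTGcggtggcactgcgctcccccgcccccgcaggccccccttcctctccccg
In Dll3 the match ended 2 bases before the start, in Hes6 it lay 145 to 150 bases before it and in Ina 130 to 135.

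The motif was counted over all promoters in the same way. A promoter was found for 16990 of the genes compared, and 18.1% of those held CAGCTG, which reads the same on both strands. Among the genes higher in sorted cells 68 of 210 held it, 32.4%, and among the lower genes 27 of 170, 15.9%. Promoters of the higher genes were richer in G and C, with a median of 61.3% against 56.3% over all genes. Among genes whose promoters had a GC content of 60% or more, the share was 33.1% of 124 higher genes and 17.7% of all 6536. Under that content it was 31.4% of 86 and 18.4% of 10454. The macrophage list also held it often, in 8 of 16 promoters. In all, 5 motifs were searched: the other E-box, CACGTG, was found in 8.10% of the higher genes and 9.19% of all, and the cyclic AMP response element in 1.90% and 2.65%. The core of the myeloid factor PU.1 was found in 6.47% of the lower genes and 3.44% of all. These are counts of letters and do not show binding.

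**Figure D4:**
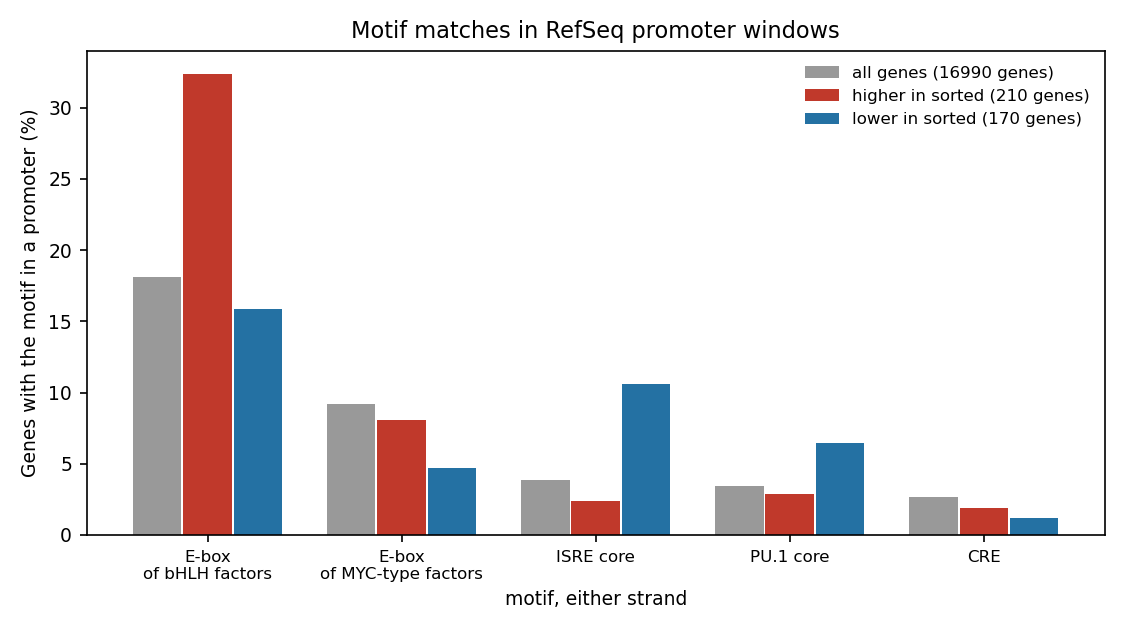
Bars give the percentage of genes with a motif on either strand of a RefSeq promoter window of 300 bases, for all genes, genes at least 2-fold higher and genes at least 2-fold lower in sorted cells. The bHLH E-box stands at 32.4% among higher genes against 18.1% of all, and the interferon element at 10.6% among lower genes against 3.87% of all.

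The 15 genes furthest above the endogenous array included a channel, a peptide, growth factors and matrix proteins. Acpp, a transmembrane acid phosphatase, was 7.26-fold higher, with 9.24 in sorted cells, 6.38 on the endogenous array and 5.45 to 7.81 on the other 4. Kcnn3, a calcium-activated potassium channel, was 6.95-fold higher, with 9.47 against 6.68. Nppc, the C-type natriuretic peptide, was 6.33-fold higher, with 8.71 against 6.04. In these 3 genes the sorted value was the highest of the 6 arrays and the endogenous value lay inside the range of the other 4. In each gene the endogenous value was above MEF and below every unsorted induced array.

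Others of the 15 act in matrix, growth factor or guidance biology. Ndst4, a heparan sulfate modifying enzyme, was at least 6.16-fold higher, and Sprr1a, a cornified envelope protein also induced in injured neurons, was 6.09-fold higher. Scube1, a secreted EGF-domain protein, was 5.77-fold and Sparcl1, a synapse-associated matricellular protein, 5.29-fold higher. Tmem108 was 5.35-fold higher, and 2.32-fold with the mean of its 2 probe sets. Sparcl1 had 11.05 in sorted cells, 8.64 on the endogenous array, 9.62 to 10.54 in unsorted induced cells and 6.65 in MEF. Bmp7, a bone morphogenetic protein, had 9.17 against 6.80, and Rgs5, a pericyte-associated regulator of G protein signalling, 8.21 against 5.92. For Rgs5 the fold was 4.90, and 3.14 with the mean of its 2 probe sets. Draxin, a repulsive axon guidance protein, had 8.72 against 6.57 and 5.82 to 6.59 elsewhere. Tspan18, Ecm1, Brinp3 and Htra3 completed the 15, between 4.28-fold and 4.76-fold higher.

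On the other side of the comparison, many genes of the macrophage list were lower in sorted cells. Of 21 measured macrophage genes, 10 were at least 2-fold lower, 47.6% against 1.14% of all genes, and 0 higher, with a median of -1.22 over the 18 above the floor. The intensities of the 21 genes summed, on a linear scale, to 743.7 in sorted cells and 3002 on the endogenous array, with 736.6 in day 3 cells and 2571 in MEF as the lowest and highest of the others. On the endogenous array 18 of the 21 lay at or above the floor, in MEF 17 and in sorted cells 8. Fewer cells of a type and less RNA per cell cannot be told apart in such bulk samples. With the higher floor 4 of the 21 were lower, and with no floor 16.

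Lyz2, macrophage lysozyme, had 6.03 in sorted cells and 10.05 on the endogenous array, 16.3-fold, with 6.76 to 9.78 on the other 4. Fcer1g, the shared signalling chain of Fc receptors, had 5.45 against 8.19, and Adgre1, an adhesion receptor that marks macrophages, was under the floor in sorted cells against 7.69. Ctss, cathepsin S, and Tyrobp, an adaptor of myeloid receptors, were under the floor in sorted cells and had 6.89 and 6.71 on the endogenous array. MEF had 8.32 for Fcer1g and 7.69 for Ctss, above the endogenous array, and 7.06 for Adgre1, below it. Not every defining marker took part. Ptprc, the leukocyte antigen CD45, and Aif1 were under the floor on both arrays, Csf1r, the receptor of colony-stimulating factor, had 5.15 and 5.58, and Cx3cr1 had 6.17 and 6.16. Lilrb4a, an inhibitory receptor of myeloid cells, was 28.7-fold lower, with 5.86 against 10.70, and MEF had 10.23. The sorted sample had passed a gate for GFP, and the labels give no gate for the endogenous one.

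Several chemokine genes were lower in sorted cells as well. Of 23 measured chemokine and cytokine genes, 9 were at least 2-fold lower, 39.1% against 1.14% of all genes, and 0 higher, with a median of -0.75 over 21. Ccl3, a chemokine of myeloid cells, had 5.55 against 9.34, 13.8-fold, and Ccl6 was at least 12.6-fold lower. Ccl9 had 6.12 against 8.94. The monocyte attractants Ccl2 and Ccl7, which fibroblasts also secrete, had 8.78 and 8.99 against 10.68 and 10.92, and for both the sorted array was the lowest and the endogenous array the highest of the 6. Ccl11, an eosinophil attractant, had 8.04 against 10.14, and Cxcl14 8.21 against 10.39. The summed level of the macrophage list, 743.7 against 3002, was lower in sorted cells, as were these genes and the acute-phase genes. On MEF that sum was 2571, while the acute-phase list summed to 3638 there, the lowest of the 6 arrays. The part of the macrophage genes in either difference was not tested.

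Of 13 measured acute-phase and complement genes, 12 had lower values in sorted cells and Orm1 was under the floor on both arrays. Of the 13, 6 passed 2-fold, 46.2% against 1.14% of all genes, and the median of the 12 was -1.10. Reg3g, an antimicrobial lectin, showed the widest difference of the comparison, with 4.15 in sorted cells and 10.63 on the endogenous array, at least 49.1-fold, and 5.34 to 9.12 on the other 4. Its relative Reg1 was at least 8.61-fold lower. Serpina3n, a secreted protease inhibitor, had 8.67 against 11.51, Cfb, complement factor B, 6.52 against 9.05, and Hp, haptoglobin, 7.39 against 9.40. For 11 of the 13 genes the endogenous array had the highest value of the 6. Saa3, serum amyloid A, and Lcn2, lipocalin 2, were bright on both, with 12.45 and 11.31 in sorted cells and 13.37 and 12.18 on the endogenous array, under 2-fold.

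Some interferon-induced genes were lower in sorted cells. Of 25 measured, 5 were at least 2-fold lower, 20.0% against 1.14% of all genes, and 0 higher, with a median of -0.70 over 24. Irf7, a regulator of the response, had 8.35 in sorted cells and 9.55 on the endogenous array, with 6.58 to 9.31 on the other 4. Ifit1, which binds viral RNA, had 8.40 against 9.57, Oas2, an RNA-sensing synthetase, 7.33 against 8.47, and Gbp3, a guanylate-binding protein, 5.60 against 6.95. For 15 of the 25 the endogenous array was the highest of the 6. MEF held the lowest value of Irf7, Ifit1 and Oas2, and the array labelled endogenous PV the highest. In the antigen presentation list, 0 of 12 passed 2-fold, with a median of -0.38.

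The core of the interferon-stimulated response element is GAAA, then 2 letters of any kind, then GAAA, and it is bound by interferon-activated factors. It was searched on both strands and is shown in capitals, here as its reverse complement, in the stretches before the starts of Ifit1 at chr19:34640759-34640858 and Gbp3 at chr3:142559944-142560043, both on the plus strand.
Ifit1: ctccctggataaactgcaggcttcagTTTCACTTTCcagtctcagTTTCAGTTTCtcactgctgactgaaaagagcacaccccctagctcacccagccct
Gbp3: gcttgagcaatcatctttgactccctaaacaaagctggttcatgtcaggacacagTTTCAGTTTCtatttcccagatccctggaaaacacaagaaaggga
The element was found in 10 of 17 promoters of the interferon list. Over all genes 3.87% held it, among the genes lower in sorted cells 18 of 170, 10.6%, and among the higher genes 5 of 210, 2.38%. Among promoters under 60% GC it was in 13.7% of 117 lower genes and 5.03% of 10454 genes in all.

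Matrix genes separated by class. In the fibroblast and matrix list, 3 of 39 measured genes were at least 2-fold lower in sorted cells, 7.69% against 1.14% of all genes. In that list 0 were higher, and the median was -0.39. The main structural genes were close, Col1a2 with 11.62 against 11.75, Fn1, fibronectin, with 12.93 against 12.59 and Postn, periostin, with 12.36 against 12.52. Col3a1, the type III collagen chain, had 10.88 against 12.04, and Timp1, an inhibitor of metalloproteinases, 8.40 against 9.76. All 39 lay at or above the floor on the endogenous array and 38 in sorted cells, so fibroblast markers were present in both samples.

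Proteases and small leucine-rich proteoglycans differed more. Of 19 measured, 8 were at least 2-fold lower in sorted cells, 42.1% against 1.14% of all genes, and 0 higher. The median was -1.03 over 15, and the same number were 2-fold lower with the higher floor. Mmp3, stromelysin, had 6.18 in sorted cells and 10.11 on the endogenous array, 15.3-fold, and the other 4 arrays had 6.77 to 10.64. Prelp had 7.63 against 10.88 and Aspn, asporin, 7.94 against 10.93, with MEF the highest array for both. Fmod, fibromodulin, had 5.64 against 7.72, and Podn, podocan, 8.44 against 10.03. With the mean of the 2 probe sets of each, the fold was 3.84 instead of 9.50 for Prelp and 2.62 instead of 4.23 for Fmod. Apod, a lipocalin of quiescent fibroblasts and glia, was at least 27.9-fold lower, and Cyp2f2, a cytochrome of xenobiotic oxidation, 17.9-fold lower, or 7.92-fold with the mean of its 2 probe sets.

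**Figure D5:**
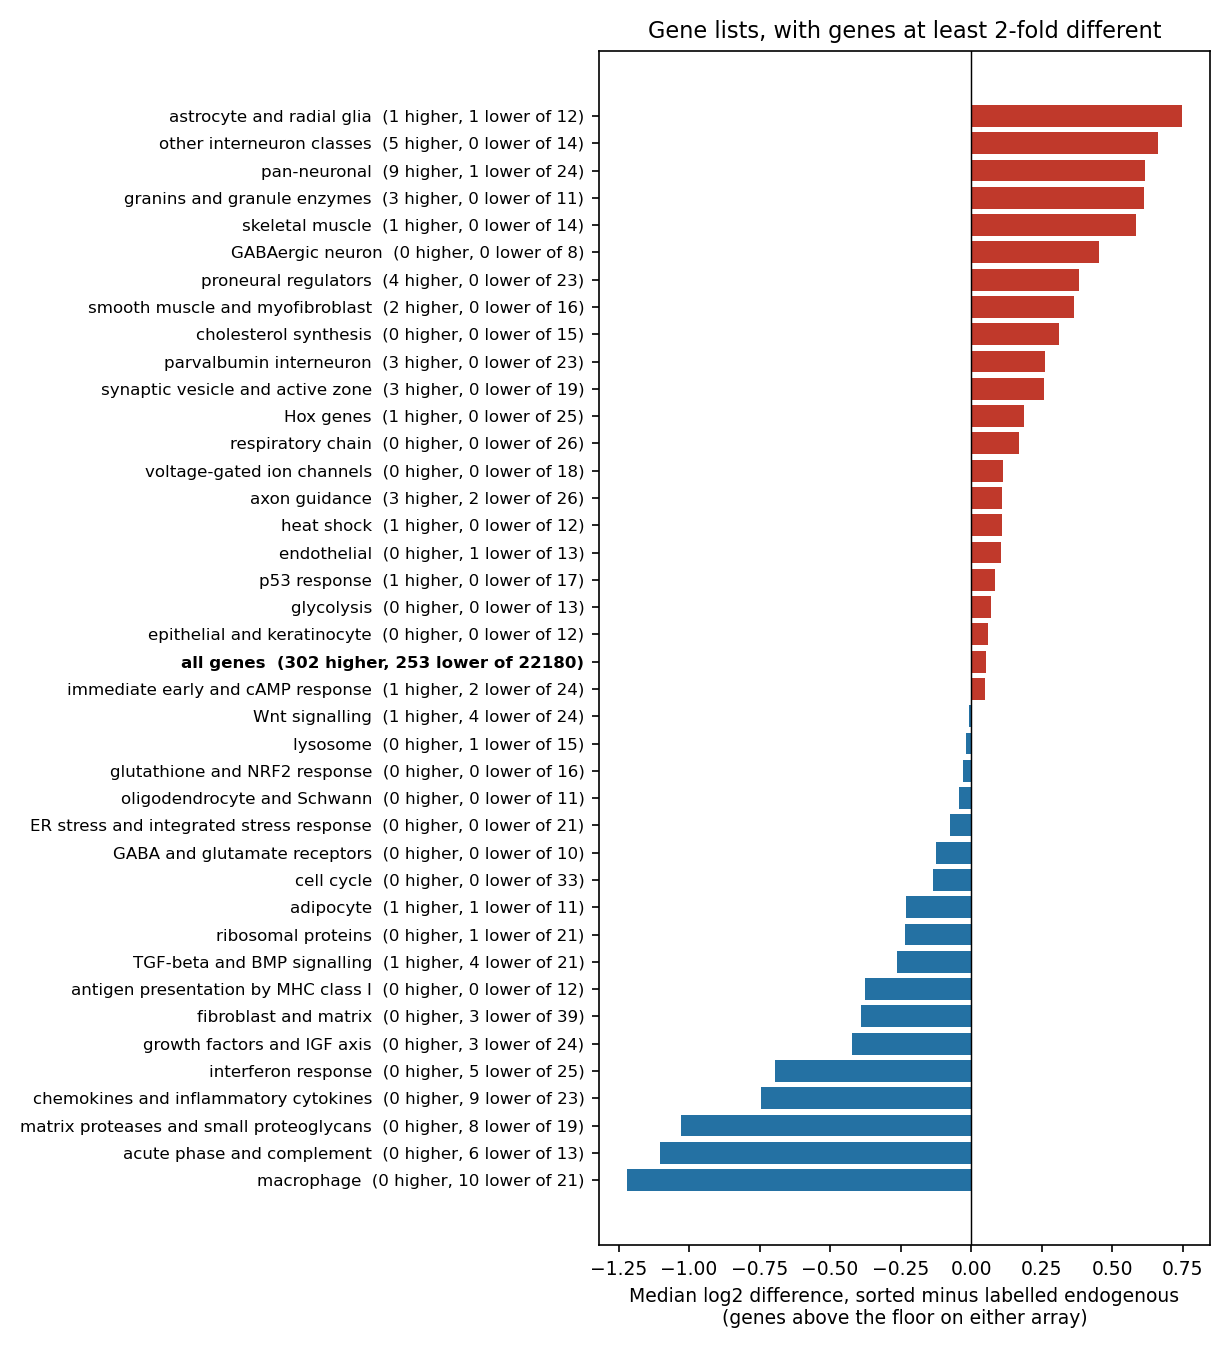
Bars give the median log2 difference, sorted minus labelled endogenous, of the members of each list at or above the floor on either array, for lists with 5 or more such members, and the row names give the genes at least 2-fold different among all measured members. Astrocyte and radial glia genes stand at 0.75, other interneuron genes at 0.66 and pan-neuronal genes at 0.62, while GABA and glutamate receptors lie at -0.12. Macrophage genes at -1.22 and acute-phase genes at -1.10 lie at the other end, with all genes at 0.05.

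In the Wnt and TGF-beta lists as many or nearly as many members lay on either side, and the 2-fold calls were more often lower. Among Wnt genes 11 had higher and 11 lower values in sorted cells. Of 24, 4 were at least 2-fold lower, 16.7% against 1.14% of all genes, and 1 higher, 4.17% against 1.36%. Lgr5, the R-spondin receptor of stem cells, had 5.45 against 9.17, 13.2-fold, with 5.41 at day 14 and 9.81 in MEF, and Sfrp2, a secreted Wnt antagonist, 7.23 against 10.47. With the mean of the 2 probe sets of each, Lgr5 was 3.46-fold lower and Sfrp2 4.74-fold instead of 9.44-fold. Fzd2, a Wnt receptor, was the higher one, 8.97 against 7.85. Among TGF-beta and BMP genes 9 had higher and 12 lower values. Of 21, 4 passed 2-fold downward, 19.0%, and 1 upward, 4.76%. They included Ltbp2 at 7.31 against 9.61, the BMP antagonist Grem1 at 6.46 against 8.34, and Gdf6, higher at 7.26 against 6.23. Bmp7, which was 5.14-fold higher in sorted cells, is not in this list and is not counted. Igfbp3, which binds insulin-like growth factors, had 10.27 against 12.22, the highest of the 6.

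Axon guidance genes went both ways. Of 26 measured, 3 were at least 2-fold higher in sorted cells and 2 lower. Both shares were above those of all genes, 1.36% higher and 1.14% lower. Unc5c, a netrin receptor, had 7.81 against 6.11, Robo1, a Slit receptor, 9.85 against 8.34, and Plxna2, a semaphorin receptor, 7.92 against 6.68, each the highest of the 6 arrays. Epha4 and Sema3c were lower, with 7.59 against 8.63 and 8.59 against 9.59. Draxin, the guidance protein named above with 8.72 against 6.57, is not in this list and is not counted. Its difference was larger than that of any gene counted here. In the smooth muscle list 2 of 16 were higher, 12.5% against 1.36% of all genes, and 0 lower. Des, desmin, had 8.42 against 6.52 and Ankrd1, a stretch-responsive nuclear protein, 10.52 against 8.99. Ankrd1 was higher still in unsorted cells, with 11.86 at day 3 and 11.55 at day 14. Measured from the median of the other 4 arrays, the list had a median of -0.30 in sorted cells and -0.65 on the endogenous array.

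Lists of division and metabolism held few or no genes past 2-fold. Beside the counts below, 1.36% of all genes were higher and 1.14% lower. In the cell cycle, cholesterol synthesis, glycolysis, respiratory chain and ER stress lists, 0 members differed 2-fold in either direction, over 33, 15, 13, 26 and 21 measured genes. Mki67, a proliferation marker, had 7.77 in sorted cells and 8.06 on the endogenous array. Among stress lists, 1 of 12 heat shock genes was higher, Hspb1, a small heat shock protein, 2.25-fold and 1.48-fold with the mean of its 2 probe sets. In the p53 list 1 of 17 was higher, Perp, a desmosome-associated protein, at 7.76 against 6.25. Among 24 immediate early genes Nr4a3 was higher, at 7.02 against 5.98, and Fos and Klf4 were lower. Ribosomal protein genes had a median of -0.23, and the sorted array was the lowest of the 6 for 13 of the 21. Markers of other cell types were counted beside the neuronal ones, and their part in the neuronal differences was not tested. The 7 astrocyte and radial glia genes above the floor had a median of 0.75, with Nes, the intermediate filament nestin, higher at 7.23 against 5.97 and Slc1a3, a glutamate transporter of glia, lower at 6.64 against 7.69, while Gfap was under the floor on both arrays. The 5 skeletal muscle genes above the floor had a median of 0.59, and Des alone of the 14 measured passed 2-fold. Of 11 adipocyte genes Fabp4, a fatty acid binding protein, was higher at 9.66 against 8.32, and Cd36, a fatty acid receptor, lower at 5.63 against 7.82. By contrast 0 of 12 epithelial genes, 0 of 5 erythroid genes and 0 of 11 oligodendrocyte and Schwann cell genes passed 2-fold. Of 13 endothelial genes 1 did, Flt1, a VEGF receptor, at 5.37 against 7.39, while Cdh5, the endothelial cadherin, was under the floor on both.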

How the data were processed

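Biotinylated cRNA from 6 µg of total RNA of each of 6 samples was put on Affymetrix arrays, per the labels' protocols. The authors deposited log2 values per probe set, and the submitters' processing notes name Affymetrix Expression Console with no role. The algorithm is not given in the sources used here. That the scale is log2 was inferred from the range of the values. With 1 array per group, the number of arrays limits the precision.

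Of 41345 probe sets, 5333 numbered below the first annotated one were taken as controls and left out. The platform annotation gave 1 symbol to 23521, several to 1814 and none here to 10677, and 23328 of the Entrez identifiers were found in RefSeq GRCm38.p6. Where several probe sets stood for a gene, the one brightest on average over the 6 arrays was used. No test was possible, and calls are differences of 2-fold after flooring. Counting was tested on simulated data with differences planted only in genes well above the floor, so the test does not cover calls near the floor.

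The comparison and the 42 gene lists (827 genes, 743 measured) were chosen with earlier results of these data known. Named genes were the 15 largest differences in each direction with all probe sets above the floor agreeing and unnamed or predicted genes left out, up to 4 per list and a preset set. The text gives a selection, and the other genes named were chosen after their values were seen, as were the promoter motifs. Alternatives were quantile normalization, housekeeping centring, the mean of probe sets, no floor, a floor at percentile 75 and a 4-fold threshold. Python 3.11.15 with pandas 2.3.3 was used.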

Additional observations from a re-analysis of the deposited data

How the results depend on the processing

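No paired analysis was possible because each group has 1 array. No array could be left out for the same reason. Quantile normalization gave 252 genes higher and 265 lower, and centring on housekeeping genes 271 and 266, so the share of higher genes among those called moved from 54.4% to 48.7% and 50.5%. Neither changed the sign of a list median, except that of housekeeping genes under centring, from 0.01 to -0.03. The mean of probe sets gave 289 and 241. Without a floor 430 genes were higher and 446 lower, a share of 49.1%, which included all 302 and 253. A floor at percentile 75 left 139 and 160, a share of 46.5%, and turned the median of voltage-gated channel genes from 0.11 to -0.73 and of endothelial genes from 0.10 to -0.74. At 4-fold 17 and 65 remained, a share of 20.7%. Of 98 named genes that differed 2-fold, 92 did so after quantile normalization, 95 after centring, 97 with the mean of probe sets, 98 without a floor and 76 with the higher floor. Of all 201 named genes, 75 moved by over 0.32 with the higher floor, which by construction shrinks differences of low values.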

Other observations

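Some genes outside the lists were picked after their values were seen. Both angiotensin receptor genes were lower in sorted cells, Agtr1a with 6.24 against 8.24 and Agtr2 with 7.74 against 9.82. The phagocyte genes Itgam, Cybb and Cd53 were under the floor in sorted cells and had 7.43, 7.78 and 7.93 on the array labelled endogenous PV. The major urinary protein gene Mup3 had 6.54 against 9.43, and its values are uncertain because members of that family are nearly identical in sequence.

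Some further genes were higher in sorted cells and were likewise picked by their values. Prph, the intermediate filament peripherin, had 7.06 against 5.15, and Gfra3, a receptor of the artemin family, 6.65 against a value under the floor. The nicotinic receptor subunits Chrna4, of neurons, and Chrnb1, of muscle, had 6.86 and 7.71 against 5.29 and 5.96. Ptprn, a membrane protein of dense-core granules, had 9.19 against 7.31. Each of these 5 genes had its highest value of the 6 arrays in sorted cells.

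Among the 10677 probe sets without a symbol, 110 were at least 2-fold higher in sorted cells and 121 lower, and among the 1814 with several symbols 11 and 20. They are counted here and not named.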
